A study of Mus musculus with 2 samples.

Results

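The genes described here encode the nuclear subunits of oxidative phosphorylation, with the Ndufaf assembly factors of complex I, in mouse liver. They were taken by gene symbol: probe sets with a single annotated symbol that starts with Nduf, Cox4, Cox5, Cox6, Cox7, Cox8, Uqcr or Atp5, or that equals Sdha, Sdhb, Sdhc, Sdhd, Cyc1 or Cycs. This gave 92 genes, measured by 184 probe sets, of 18193 genes named on the array. The rule used no difference between the groups, though earlier results of these data were known when it was chosen. For each gene the probe set of highest mean log2 signal was taken, and the other probe sets served as a check.

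Liver RNA of male C57Bl/6J mice, aged 9 weeks before a week of acclimatisation, was measured on Affymetrix expression arrays. The mice of both groups ate a diet poor in n-3 polyunsaturated fatty acids (DEF, the depleted diet), whose oil was sunflower instead of soybean, within an experiment of 112 days. In the last 10 days the DEF/FOS mice stayed on the depleted diet, with an n-6 to n-3 ratio of 127.2, and took 0.25 g of fructooligosaccharides (FOS, a fermentable fibre) per day in their drinking water. The DEF/CT mice were returned in the same period to the soybean oil control diet, with a ratio of 6.9. The treatment protocol gives 8 mice for each group, the extraction protocol gives 4 to 8 for each pool, and equal amounts of RNA were pooled within a group, so that each group is 1 pool on 1 array. Fibre and oil differ together between the pools and cannot be told apart. Mice given only the depleted or only the control diet are not analysed here.

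Values are MAS5 signals on a linear scale, and a difference is the log2 signal of the DEF/FOS pool minus that of the DEF/CT pool, centred on the median over probe sets above a floor. The floor is a signal of 19.4, the median over probe sets with controls left out, and it is not a detection call. There are no replicates, so no difference below has a test or an error from animals, and the number of arrays limits the precision. The only technical yardstick in the table is how far probe sets for one gene scatter, an SD of 0.38 on the log2 scale over 4885 genes and 0.21 over the 46 oxidative phosphorylation genes with more than 1 probe set above the floor. It depended on signal, from 0.57 in the dimmest quartile of probe sets above the floor to 0.22 in the brightest, above a signal of 249. Hepatocyte markers were bright in both pools: 10 of 12 listed markers were named on the array, with signals of 2980 to 14299 in the DEF/FOS pool and 2579 to 14867 in the DEF/CT pool, and a median difference of -0.03.

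Oxidative phosphorylation makes most of the ATP of a liver cell. Complex I takes electrons from NADH and complex II takes them from succinate, and both pass them to ubiquinone. Complex III hands them to the small carrier cytochrome c, complex IV passes them to oxygen, and complex V, the ATP synthase, uses the resulting proton gradient. A few subunits of complex IV exist as tissue isoforms, one form in liver and most other tissues and another in heart and skeletal muscle.

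The subunits of the 5 complexes had nearly the same signal in both pools, while the signals of the 3 muscle isoforms were lower in the DEF/FOS pool. Of the 92 genes, 87 lay above the floor, and each of these 87 was above it in both arrays. Their median difference was 0.00, as was that of all 11163 genes above the floor (0.00), and 42 of the 87 differences were above 0, against 49.9% of all genes. One gene, Cox6b2, was at least 1.5-fold higher in DEF/FOS, where 6.75% of all genes were. One gene, Cox6a2, was at least 1.5-fold lower, where 7.82% of all genes were. At 2-fold, 0 of the 87 genes were higher and 1 was lower, against 1.74% and 2.19% of all genes.

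The genes varied little among themselves. Of the 87, 82 or 94.3% differed by less than 0.32 on the log2 scale in either direction, against 63.7% of all genes. Without the muscle isoforms Cox6a2 and Cox7a1, 85 genes remained, with an SD of their differences of 0.16 and a median absolute difference of 0.07 on the log2 scale, against 0.48 and 0.23 over all genes above the floor. Most of these genes are bright on the array, and bright probe sets scatter less. At a mean signal of 1000 or more, a stratum chosen after the values were seen, the 70 oxidative phosphorylation genes had a median absolute difference of 0.06 and an SD of 0.11. The 937 other genes of that stratum had 0.14 and 0.34. In it 69 of the 70 genes, or 98.6%, were less than 0.32 apart, against 78.3% of the other genes. These are descriptions of 1 pair of arrays.

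**Figure D1:**
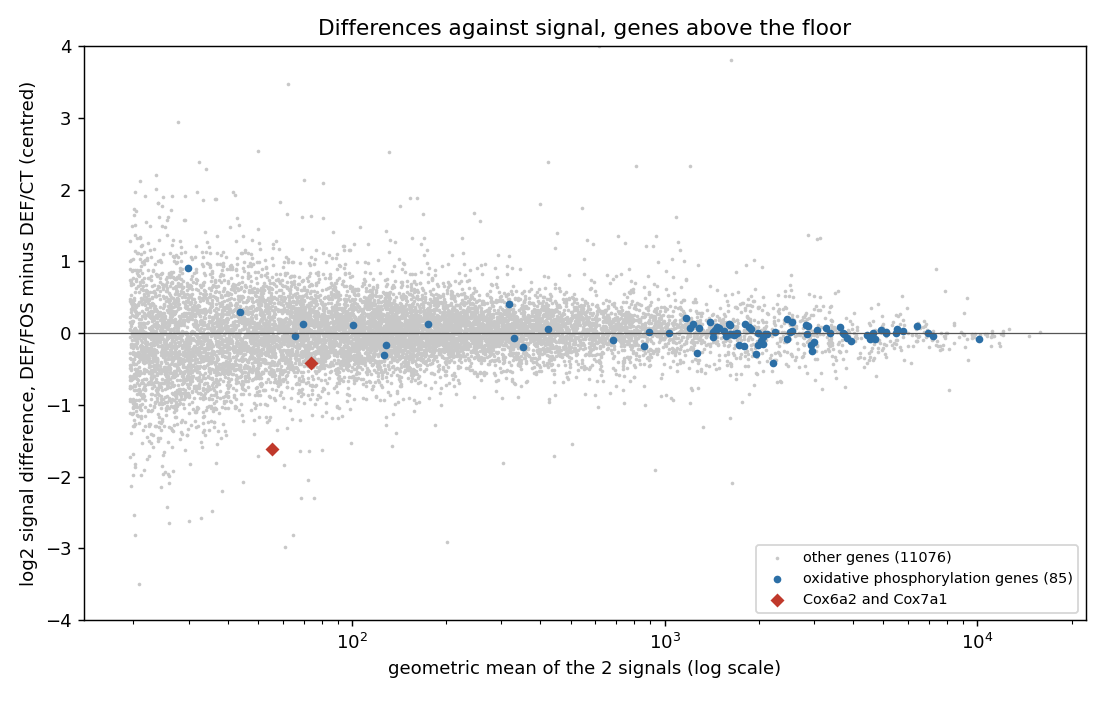
Each point is a gene above the floor, placed by the geometric mean of its 2 signals (x, log scale) and its centred log2 difference, DEF/FOS minus DEF/CT (y). The 85 oxidative phosphorylation genes in blue lie close to 0 within the grey cloud of 11076 other genes, Cox6a2 lies at -1.62 and Cox7a1 at -0.42, and 9 other genes lie beyond the plotted range of 4 in either direction.

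Complex I, which oxidises NADH, was represented by 6 of its core subunits, which carry its redox centres or form its electron path. Their median difference was 0.00 and 3 of the 6 were above 0. Ndufs1, the large iron-sulphur subunit, gave 888 in DEF/FOS and 887 in DEF/CT. Ndufv1, which binds NADH and flavin, had 1398 in DEF/FOS and 1462 in DEF/CT, and Ndufv2, an iron-sulphur subunit beside it, had 1646 and 1671 in the same order. With these brightest probe sets, the 3 subunits of the NADH-oxidising arm differed by at most 0.05 on the log2 scale. The dimmer probe sets, all above the floor, were lower in DEF/FOS, at -0.09 and -0.14 for Ndufv1 and -0.10 and -0.34 for Ndufv2. Ndufs1 has 1 probe set.

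The other core subunits spread more widely. Ndufs7, an iron-sulphur subunit near the ubiquinone site, had 1247 in DEF/FOS and 1089 in DEF/CT, a difference of 0.21. Ndufs3 had 1464 in DEF/FOS and 1327 in DEF/CT, a difference of 0.16. Ndufs8, which carries further iron-sulphur clusters of this path, had 1912 in DEF/FOS and 2582 in DEF/CT, a difference of -0.42. Its 6 probe sets, all above the floor, disagreed: a second one gave -0.40, the other 4 lay between 0.05 and 0.24, and the median of the 6 was 0.07. All of these differences except that of Ndufs8 were within the 0.22 SD between probe sets of one gene at such signals.

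The accessory subunits of complex I, which surround and stabilise the core, had a median of 0.00 over the 27 above the floor, with 11 above 0 and a range of -0.27 to 0.13. The lowest were Ndufb10, at 1152 in DEF/FOS and 1404 in DEF/CT, Ndufa6 with a difference of -0.17 and Ndufb6 with one of -0.17, whose other probe set gave 0.05. The highest were Ndufb1 at 0.13, with signals of 72.4 in DEF/FOS and 66.8 in DEF/CT, Ndufa8 at 0.09 and Ndufa5 at 0.07. Ndufab1, the mitochondrial acyl carrier protein, which also serves fatty acid synthesis in the organelle, had 1546 in DEF/FOS and 1599 in DEF/CT. All 27 differed by less than 0.32. Ndufb4 lay below the floor with the single probe set named for it alone, at 11.8 in DEF/FOS and 10.7 in DEF/CT. A pair of probe sets annotated jointly to Ndufb4, Ndufb4b and Ndufb4c gave 2053 and 1473 in DEF/FOS, against 2062 and 1460 in DEF/CT. A shared probe set cannot separate such copies, so these were not counted. Ndufs6 and Ndufa11 likewise had values from shared probe sets alone. That of Ndufs6 and Ndufs6b had 1787 in DEF/FOS and 1804 in DEF/CT, and the brighter one of Ndufa11 and Ndufa11b had 907 in DEF/FOS and 924 in DEF/CT.

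The Ndufaf genes encode factors that build complex I and do not remain in it. All 8 lay above the floor, with a median of 0.00 and 4 above 0. Ndufaf4, which acts together with Ndufaf3 in early assembly, had the largest difference, 0.41, at 365 in DEF/FOS and 278 in DEF/CT, and its other probe set gave 0.30. Ndufaf3 had 182 in DEF/FOS and 168 in DEF/CT, a difference of 0.13, and Ndufaf7, a protein methyltransferase, differed by 0.12. At the low end, Ndufaf1 had 328 in DEF/FOS and 378 in DEF/CT, a difference of -0.19. Ndufaf2 had a difference of -0.17 and Ndufaf6 one of -0.06. The factors therefore differed in both directions. The largest of these differences, that of Ndufaf4, was 1.33-fold, and no assembly factor of complex I was 1.5-fold apart.

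Complex II, succinate dehydrogenase, is the enzyme shared by the tricarboxylic acid cycle and the respiratory chain, and all 4 of its subunits are nuclear genes. Its median difference was 0.03. Sdha, the flavin subunit, had 2837 in DEF/FOS and 2884 in DEF/CT, and its dimmer probe sets above the floor gave -0.22 and 0.28. Sdhb, the iron-sulphur subunit, had 2704 in DEF/FOS and 3247 in DEF/CT, a difference of -0.25. Of the membrane anchors, Sdhc had 1514 in DEF/FOS and 1461 in DEF/CT, and Sdhd had 1671 and 1544 in the same order. The dimmer probe sets of these anchors had the opposite sign, at -0.17 for Sdhc and -0.14 for Sdhd, so no direction can be given for either. With the brightest probe sets the 4 subunits ran from -0.25 to 0.13. Of these values only that of Sdhb, which has 1 probe set above the floor, was past the 0.22 SD between probe sets at such signals.

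Complex III, which passes electrons from ubiquinol to cytochrome c, had a median of 0.01 over 9 subunits, 5 of them above 0. Uqcrfs1, the Rieske iron-sulphur protein, had the largest difference, 0.19, at 2613 in DEF/FOS and 2314 in DEF/CT. Uqcrq followed at 0.11 and Uqcr10 at 0.11. Cyc1, cytochrome c1, had 3102 in DEF/FOS and 3039 in DEF/CT, and the core protein Uqcrc1 had 1640 in DEF/FOS and 1680 in DEF/CT. The lowest were Uqcrh, the hinge protein, at -0.17, Uqcrb at -0.08 and Uqcrc1 at -0.02. The soluble carrier itself, Cycs, had 5090 in DEF/FOS and 5084 in DEF/CT, a difference of 0.02, with -0.30 to 0.20 over its 4 probe sets. No subunit of this complex differed by more than the 0.22 SD between probe sets.

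Complex V had a median of 0.00 over 17 subunits, 8 of them above 0, and ran from -0.29 to 0.16. The catalytic head was nearly level: Atp5a1, the alpha subunit, had 3724 in DEF/FOS and 3535 in DEF/CT, and Atp5b, the beta subunit, had 5063 in DEF/FOS and 5122 in DEF/CT. Over the 5 subunits of the F1 head the median was 0.08, and over the 12 other subunits it was -0.01. The 3 genes that encode the same c subunit of the membrane rotor had slightly lower signals in DEF/FOS, with differences of -0.17 for Atp5g2, -0.11 for Atp5g1 and -0.04 for Atp5g3. The lowest of all was Atp5md, a small membrane subunit, at 1764 in DEF/FOS and 2176 in DEF/CT. Atp5k had 0.16 with its brightest probe set, at 2674 in DEF/FOS and 2420 in DEF/CT, but its other probe sets gave -0.02 and -0.04. Atp5mpl followed at 0.13 and Atp5d at 0.10. None of the 17 differed by 0.32 or more.

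Complex IV, cytochrome c oxidase, was described without its 3 muscle isoforms. Of the 14 remaining genes 12 lay above the floor, with a median of 0.02 and 7 above 0. Cox4i1, the ubiquitous form of subunit 4, had 4971 in DEF/FOS and 4884 in DEF/CT, and Cox5a had 5795 in DEF/FOS and 5739 in DEF/CT. Cox5b, Cox6b1 and Cox6c differed by -0.02, 0.00 and 0.00 with their brightest probe sets. Other probe sets gave 0.14 for Cox6b1 and -0.24 for Cox6c. For Cox5b a bright one gave -0.16 and a dim one -0.35. Cox7a2l, which takes part in joining complexes III and IV, had 806 in DEF/FOS and 920 in DEF/CT, a difference of -0.18. The widest differences were at low signal. Cox6b2, an isoform known from testis, had 40.6 in DEF/FOS and 22.0 in DEF/CT, 1.87-fold higher with a difference of 0.90. The SD between probe sets at such a signal is 0.57, its DEF/CT signal lay close to the floor of 19.4, and it has 1 probe set. With an offset of 32 added to both signals it was no longer 1.5-fold higher. Cox7c had 48.3 in DEF/FOS and 39.8 in DEF/CT with its brighter probe set. That difference of 0.29 was within the 0.44 SD between probe sets at such a signal. The other probe set of Cox7c lay below the floor, at 9.67 in DEF/FOS and 17.6 in DEF/CT, so no direction can be given. Cox8c, like Cox6b2 an isoform known from testis, had 114 in DEF/FOS and 142 in DEF/CT, a difference of -0.30. Cox4i2, an isoform known from lung, and the testis form Cox7b2 lay below the floor in both pools. Ndufa4, named after complex I but now assigned to complex IV, had 1922 in DEF/FOS and 1863 in DEF/CT, and its relative Ndufa4l2 was below the floor in both.

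**Figure D2:**
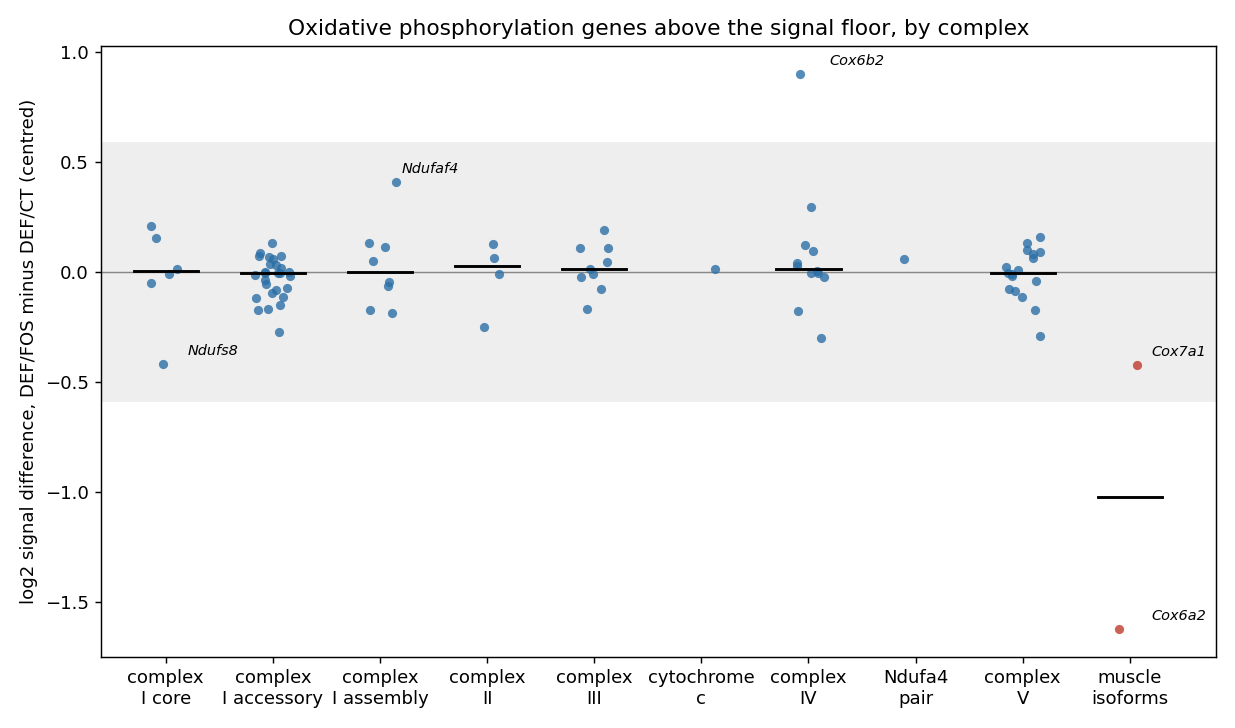
Each point is a gene above the floor, with its centred log2 difference, DEF/FOS minus DEF/CT, on the y axis and its complex or class on the x axis. Black lines are medians, the grey band spans 1.5-fold in either direction, and red marks the muscle isoforms Cox6a2 and Cox7a1. Cox8b, below the floor on average, is not drawn. The medians of the complexes lie between 0.00 and 0.03, and Cox6b2 at 0.90 and Cox6a2 at -1.62 lie outside the band.

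The medians of the complexes ran from 0.00 for complexes I and V to 0.03 for complex II, and with 1 pair of arrays no difference between them was tested. One mitochondrially encoded partner was named on the array, ND5, a membrane subunit of complex I, with 11107 in DEF/FOS and 12311 in DEF/CT, a difference of -0.13.

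Of the 3 muscle isoforms, Cox6a2 and Cox8b stood apart from this pattern. Cox6a2 had 31.5 in DEF/FOS and 97.9 in DEF/CT and was 3.08-fold lower, a difference of -1.62. The SD between probe sets at that signal is 0.44, and with an offset of 32 added to both signals the difference was -1.02. Its second probe set had 4.16 in DEF/FOS and 8.83 in DEF/CT, both below the floor. Cox8b had 1.43 in the DEF/FOS pool, far below the floor, and 46.4 in the DEF/CT pool. Set against the floor, the DEF/FOS signal was lower by at least 2.36-fold, but its mean log2 signal lay below the floor, so it is in none of the counts. Cox7a1 had 63.5 in DEF/FOS and 86.0 in DEF/CT, a difference of -0.42 that did not exceed the 0.44 SD between probe sets at its signal. All 3 signals were thus lower in the DEF/FOS pool, by amounts that differed between the genes.

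The counterparts that liver uses showed no such difference. Cox6a1 had 6890 in DEF/FOS and 6981 in DEF/CT. Cox7a2 had 6581 in DEF/FOS and 6225 in DEF/CT, and Cox8a had 1284 in DEF/FOS and 1190 in DEF/CT. Their differences were 0.00, 0.09 and 0.12, each within the 0.22 SD between probe sets. The adenine nucleotide carriers, which exchange ATP for ADP across the inner membrane, gave the same contrast between isoforms. Slc25a4, the form typical of heart and muscle, had 77.5 in DEF/FOS and 233 in DEF/CT, 2.98-fold lower with differences of -2.17 to -1.51 over its 3 probe sets. Slc25a5, the widely expressed form, had 4836 in DEF/FOS and 4769 in DEF/CT.

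**Figure D3:**
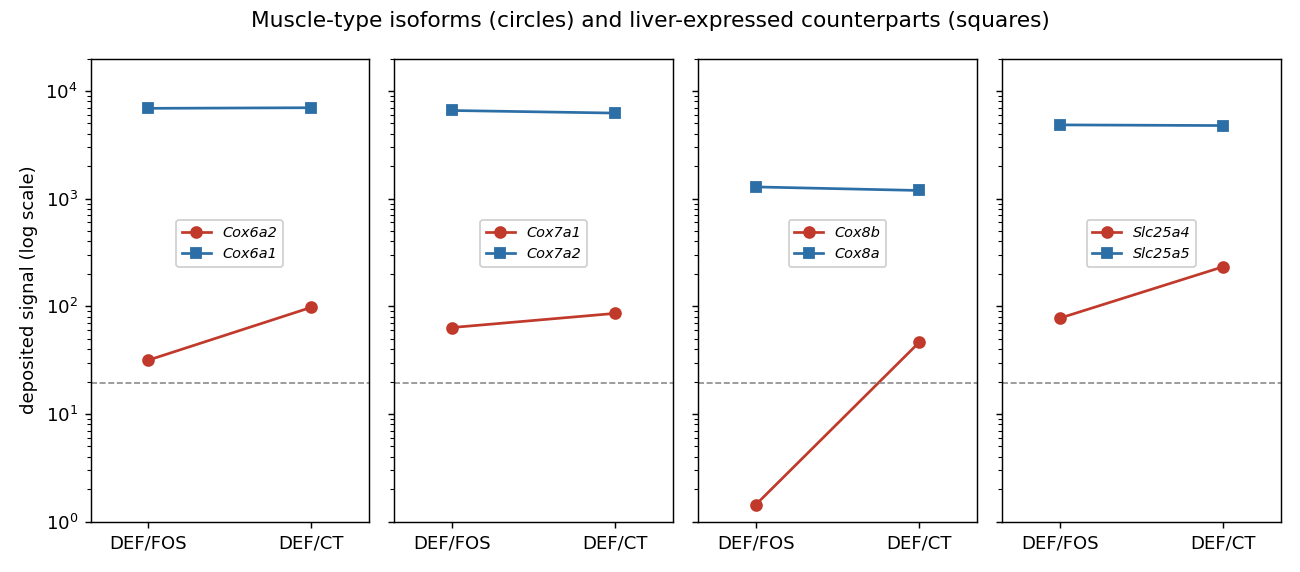
Deposited signals (log scale) of 4 muscle-type isoforms (red circles) and their liver-expressed counterparts (blue squares) in the DEF/FOS pool (left) and the DEF/CT pool (right), with 1 array each. The dashed line is the floor of 19.4. The red lines are lower on the DEF/FOS side, with Cox8b at 1.43 against 46.4, and the blue lines are nearly level. Heights of different genes come from different probe sets and are not comparable.

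Markers of skeletal muscle were lower along with these isoforms. The marker lists were chosen with earlier results of these data known, so they are not independent support. All 22 listed markers were named on the array and all 22 signals were lower in the DEF/FOS pool, where 14 of the 22 lay below the floor, while 0 of 22 did so in the DEF/CT pool. Their summed signal was 316 in DEF/FOS and 3728 in DEF/CT. Single signals ran from 0.950 to 62.4 in the DEF/FOS pool and from 30.4 to 677 in the DEF/CT pool. Over the 18 above the floor the median difference was -2.90, which includes markers that passed only through their DEF/CT signal. With low signals raised to the floor, the median over all 22 was -2.39, and all 22 were at least 1.5-fold lower. Of all genes above the floor, with signals as deposited, 49.9% had a difference above 0 and 7.82% were at least 1.5-fold lower. Acta1, skeletal muscle actin, had 16.9 in DEF/FOS and 677 in DEF/CT, a signal at least 34.5-fold lower in DEF/FOS. The creatine kinase Ckm was at least 12.2-fold lower and the myosin heavy chain Myh4 at least 5.59-fold lower.

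Markers of slow and cardiac muscle had a summed signal of 176 in DEF/FOS and 570 in DEF/CT over 15 genes, 13 of them lower in the DEF/FOS pool. Of all genes above the floor, 49.9% had a difference above 0. Only 5 of these 15 markers lay above the floor, so that share comes from brighter genes and is not matched to them. Single signals ran from 0.784 to 29.7 in DEF/FOS and from 4.63 to 154 in DEF/CT, with 12 and 6 of the 15 below the floor in that order. Only 9 of the 15 were above the floor in at least 1 pool, so the direction of the rest carries little meaning. With low signals raised to the floor, the median over all 15 was -0.31, and 5 of the 15 were at least 1.5-fold lower. The mitochondrial creatine kinase Ckmt2 had 0.784 in DEF/FOS and 154 in DEF/CT, at least 7.83-fold lower, and Fabp3 was 4.22-fold lower. Fewer muscle cells in the tissue taken and less RNA per cell cannot be told apart in pooled tissue, and the part of muscle RNA in the values of Cox6a2, Cox7a1, Cox8b and Slc25a4 was not tested.

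Cox7a1 and Cox8b are also known from brown adipose tissue, most of whose markers were near or below the floor. Ucp1, the uncoupling protein of brown fat, had 2.19 in DEF/FOS and 0.869 in DEF/CT. Cidea had 18.8 in DEF/FOS and 14.6 in DEF/CT, and Dio2 had 20.9 and 18.8 in the same order. Prdm16 had 10.3 in DEF/FOS and 32.8 in DEF/CT. Over all 8 named markers the summed signal was 3090 in DEF/FOS and 4710 in DEF/CT, of which Elovl3, a fatty acid elongase that liver also expresses, made up 2834 and 4417. The other markers of this list were Fabp4, at 185 in DEF/FOS and 205 in DEF/CT, and Adipoq and Lep. Adipoq had 18.8 in DEF/FOS and 19.8 in DEF/CT, and Lep was below the floor in both.

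Promoters of these genes differ in the short sequences that they hold near the annotated start. RefSeq windows from 250 bases before to 50 bases after the start (build GRCm38.p6) were available for 75 of the 92 genes. NRF1 and the ETS factor GABP are transcription factors known to act on many respiratory genes, ERR receptors act on them too, and E-boxes are bound by myogenic factors among others. Below are windows of the muscle isoform Cox8b, its liver counterpart Cox8a, the liver isoform Cox6a1 and cytochrome c, chosen because they set a muscle promoter beside promoters of broadly expressed subunits. They are written in the direction of the gene, and capitals mark matches on either strand to the motifs searched.
Cox8b, chr7:140900397-140900696, minus strand: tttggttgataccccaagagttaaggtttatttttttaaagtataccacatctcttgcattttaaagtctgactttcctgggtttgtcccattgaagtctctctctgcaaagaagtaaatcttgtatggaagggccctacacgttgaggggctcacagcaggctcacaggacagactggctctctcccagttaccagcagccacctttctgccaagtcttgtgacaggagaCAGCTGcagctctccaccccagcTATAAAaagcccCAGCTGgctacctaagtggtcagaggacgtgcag
Cox8a, chr19:7217567-7217866, minus strand: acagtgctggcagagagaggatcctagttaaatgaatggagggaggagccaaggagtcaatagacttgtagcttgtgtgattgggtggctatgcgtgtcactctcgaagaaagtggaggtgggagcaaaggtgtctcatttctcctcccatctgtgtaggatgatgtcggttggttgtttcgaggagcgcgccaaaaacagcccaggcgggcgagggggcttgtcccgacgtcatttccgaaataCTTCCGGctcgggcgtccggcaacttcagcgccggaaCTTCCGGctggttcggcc
Cox6a1, chr5:115348909-115349208, minus strand: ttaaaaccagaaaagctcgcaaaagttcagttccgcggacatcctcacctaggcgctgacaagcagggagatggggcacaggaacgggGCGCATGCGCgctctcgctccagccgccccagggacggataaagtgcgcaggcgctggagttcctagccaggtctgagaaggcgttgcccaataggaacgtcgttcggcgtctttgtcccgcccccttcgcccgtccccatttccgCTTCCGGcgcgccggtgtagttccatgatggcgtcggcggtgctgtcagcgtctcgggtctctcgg
Cycs, chr6:50566520-50566819, minus strand: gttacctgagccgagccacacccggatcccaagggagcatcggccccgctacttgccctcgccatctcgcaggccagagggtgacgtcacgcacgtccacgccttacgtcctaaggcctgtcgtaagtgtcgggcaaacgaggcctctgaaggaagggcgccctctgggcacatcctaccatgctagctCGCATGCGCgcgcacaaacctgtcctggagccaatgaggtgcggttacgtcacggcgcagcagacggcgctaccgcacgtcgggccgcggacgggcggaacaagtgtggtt
The capitals in Cox8b are the E-box CAGCTG, with first bases at -19 and 16 counted from 0 at the annotated start, and the TATA-like TATAAA at 4. Those in Cox8a are ETS matches at -5 and 32, on the strand opposite to the gene. Cox6a1 holds the NRF1 letters on both strands from -162, and an ETS match at -16. Cycs holds an NRF1 match at -61. The windows of Cox7a1 and Cox7a2 held none of the motifs.

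Over the 75 genes, the NRF1 core GCGCATGCG was found on either strand in 10, or 13.3%, against 2.61% of 17491 protein-coding genes with a window. The ETS core CCGGAAG was found in 19 of 75, or 25.3%, against 12.9%. The ERR motif TCAAGGTCA was found in 2, or 2.67%, against 0.377%. The E-box CAGCTG, added after the values were seen, was found in 6 of 75, or 8.00%, against 17.4%, and TATAAA, also added then, in 8, or 10.7%, against 14.8%. Matches of different motifs did not overlap in these windows. The 10 genes with the NRF1 core were Atp5g2, Atp5k, Atp5l, Cox6a1, Cycs, Ndufa8, Ndufaf4, Ndufaf5, Uqcr11 and Uqcrc1. Both the NRF1 and the ETS core were found in 4 of 75, or 5.33%, against 0.555%. A match is a run of letters, not evidence of binding, and no test was made of these shares.

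Genes that regulate mitochondrial transcription and biogenesis, among them factors that act on such promoters, had a median difference near 0. Of 22 listed regulators of mitochondrial transcription and biogenesis, 21 were named and above the floor, with a median of -0.02 and 10 above 0. Nrf1 had 58.8 in DEF/FOS and 63.2 in DEF/CT, Gabpa had 334 in DEF/FOS and 366 in DEF/CT, and Esrra had 161 and 172 in the same order. The coactivator Ppargc1a had 102 in DEF/FOS and 105 in DEF/CT. Its relative Ppargc1b had 136 in DEF/FOS and 234 in DEF/CT and was 1.70-fold lower. The accessory subunit of the mitochondrial DNA polymerase, Polg2, was 1.52-fold lower, at 104 in DEF/FOS and 160 in DEF/CT. Each of these 2 genes has 1 probe set above the floor, and the SD between probe sets at such signals is 0.32. These 2 of 21 regulators were at least 1.5-fold lower, against 7.82% of all genes, and 0 of 21 were at least 1.5-fold higher, against 6.75%. Probe sets of some regulators disagreed, with -0.03 and 0.85 for Gabpb1, -0.18 and 0.48 for Tfb1m, and -0.53 to 0.40 for Yy1. The largest differences in the other direction were those of the coactivator Pprc1, at 129 in DEF/FOS and 92.2 in DEF/CT, and of the mitochondrial transcription factor Tfb2m, at 479 in DEF/FOS and 370 in DEF/CT.

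Further assembly and insertion factors, beyond the Ndufaf genes, leaned to higher signals in the DEF/FOS pool. Of 42 listed, 39 were named and 37 lay above the floor, with a median difference of 0.12 and 25 of 37 above 0, or 67.6% against 49.9% of all genes. Coa7, a factor of complex IV assembly, was 1.62-fold higher at 247 in DEF/FOS and 154 in DEF/CT, with 1.10 on the log2 scale in its other probe set. It was the only one of the 37 at 1.5-fold. Above the 75th percentile of signal the median of these factors was 0.03.

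Enzymes that feed electrons into the chain were taken as 2 lists. In the tricarboxylic acid cycle 10 of 13 genes above the floor were above 0, or 76.9% against 49.9% of all genes, with a median of 0.12 and none at 1.5-fold. Without probe sets that carry the suffixes _s, _x or _a, which may match several transcripts, that median was 0.032. The largest difference was that of the succinyl-CoA ligase subunit Suclg2, at 2755 in DEF/FOS and 2176 in DEF/CT, a difference of 0.36, followed by Idh2 at 0.35. Among other donors to ubiquinone, 5 of 7 genes were above 0 and the median was 0.11. Etfdh, which passes electrons from fatty acid oxidation to ubiquinone, had 2096 in DEF/FOS and 1610 in DEF/CT, a difference of 0.39. The proline dehydrogenase gene Prodh had 479 in DEF/FOS and 686 in DEF/CT, a difference of -0.51.

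The genes of coenzyme Q synthesis had a median of -0.01 over 12 genes, 6 of them above 0. Coq8a, a kinase-like regulator of this pathway, was 1.54-fold lower at 642 in DEF/FOS and 996 in DEF/CT, and its other probe set gave -0.89. Coq4, a member of the synthetic complex, was 1.53-fold higher at 101 in DEF/FOS and 67.2 in DEF/CT. Of the carriers and pores, other than Slc25a4, those above the floor ran from -0.30 to 0.23 with their brightest probe sets. The lowest was Ucp3, which lay close to the floor, and the highest was Atpif1, the inhibitor of the ATP synthase. The other probe set of Atpif1 gave 0.81, so the size of its difference is uncertain. Over the 8 carriers, pores and related genes above the floor, Slc25a4 included, the median was 0.04. No difference of these lists has a replicate check, and none was compared with the oxidative phosphorylation subunits by a test.

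**Figure D4:**
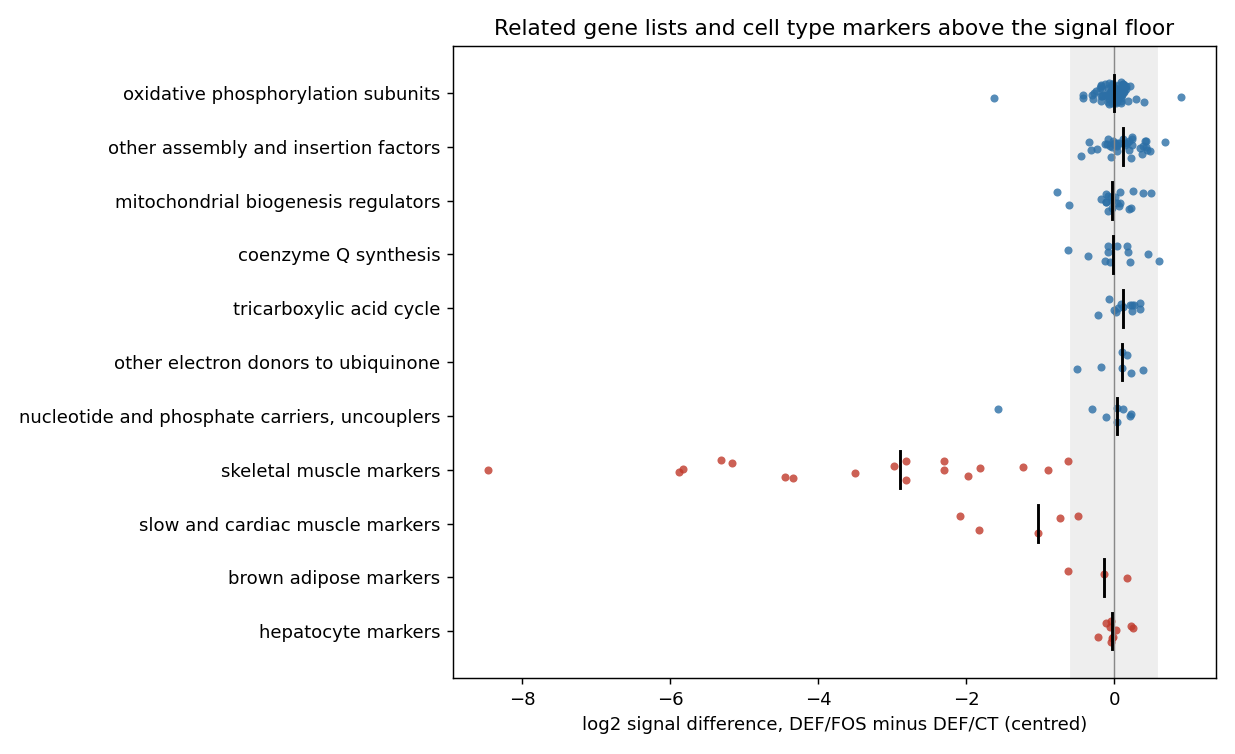
Centred log2 differences, DEF/FOS minus DEF/CT (x axis), of genes above the floor, 1 row per list. Black lines are medians, the grey band spans 1.5-fold in either direction, red rows are cell type markers, and signals below the floor are drawn as deposited, so the far left values have no order. The oxidative phosphorylation row has its median at 0.00, and the skeletal muscle row has its median at -2.90, or -2.39 with low signals raised to the floor.

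The probe sets of a gene mostly lay close to each other. Of the 184 probe sets, 165 lay above the floor, and 46 genes had more than 1. In 26 of these 46 the probe sets had opposite signs, as differences near 0 can. These genes were Ndufb11, Ndufa3, Ndufb8, Ndufc1, Ndufb9, Ndufa7, Ndufab1, Ndufa12, Ndufs4, Ndufc2, Ndufb6, Ndufaf8, Ndufs8, Sdhd, Sdhc, Sdha, Cox7a2, Cox5a, Cox6c, Cox6a1, Cox6b1, Atp5k, Atp5a1, Atp5j2, Atp5h and Cycs. In 4 genes the probe sets lay 1.5-fold or more apart from each other: Ndufb2, Ndufab1, Ndufc2 and Ndufs8. The widest was Ndufb2, whose brightest probe sets gave 0.07 and 0.03, at signals of 1316 and 1032 in the DEF/FOS pool and 1265 and 1019 in the DEF/CT pool. Its dimmest probe set gave 1.40, at 32.2 in DEF/FOS and 12.3 in DEF/CT. In Ndufc2 a probe set of 39.5 in DEF/FOS and 25.9 in DEF/CT gave 0.62, while its 3 brighter ones ran from -0.12 to 0.09. Ndufab1 gave -0.49 with a probe set of 21.9 in DEF/FOS and 31.0 in DEF/CT. In these 3 genes the deviating probe set was a dim one. In Ndufs8 the brightest and the dimmest of its 6 probe sets, at -0.42 and -0.40, deviated from the other 4.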

How the data were processed

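The authors' deposited values are MAS5 signal intensities, 1 per probe set and array, made with MAS5 and GCOS per the submitters' processing notes, which give no versions. Both arrays had a mean of 100.0 after trimming 2% of values at either end, and the table holds no detection calls. Gene symbols came from the platform annotation, which can be old: of 45101 probe sets, 64 were controls, 34958 had 1 symbol, 932 had several and 9160 had none here. Of those with 1 symbol, 34754 matched a RefSeq gene table by Entrez identifier, with 0 symbols updated. Signals were taken to log2 without an offset, and differences were centred on the median over probe sets above the floor, which was -0.01.

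With 1 array per group no test was made. The members, lists, classes and naming rule were chosen with earlier results of these data known. The rule named the muscle isoforms with their counterparts, the 3 highest and 3 lowest genes of each class (all genes of a class of 6 or fewer), genes 1.5-fold apart, and fixed catalytic subunits. In further lists it named genes 1.5-fold apart or the 2 of largest difference, and further genes named there were chosen after their values were seen. The code for the differences was first run on simulated data with known changes and the same noise level at all signals. That run checks the code and not the reliability of any single difference. Alternatives were the floor, quantile normalization, centring, an offset of 32, the choice of probe sets and the muscle isoforms. Computation used Python 3.11.15, numpy 2.4.6 and pandas 2.3.3.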

Additional observations from a re-analysis of the deposited data

How the results depend on the processing

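The medians of the complexes stayed between -0.12 and 0.16 on the log2 scale under all 9 alternatives. None moved by more than the SD between probe sets over all genes, 0.38, divided by the square root of the number of genes. That limit was 0.16 for complex I core and 0.14 for the Ndufaf factors. The core median reached 0.16 and the Ndufaf median -0.12, and both moves would exceed limits made with the 0.22 SD of the brightest quartile. The median of all oxidative phosphorylation genes ran from -0.03 to 0.052, reached with no floor. The number at least 1.5-fold higher in the DEF/FOS pool was 0 both with a 75th percentile floor and with 32 added to each signal (the offset), and 2 when probe sets with suffixes _s, _x and _a were dropped, where a dim probe set stood for Ndufb2. The number at least 1.5-fold lower was 2 with no floor, 0 with the floor at the 75th percentile and 0 without the muscle isoforms. The median of the muscle isoforms was -1.57 with no floor and -0.66 with the offset. For skeletal muscle markers the median was -3.86 with no floor, -5.34 above the 75th percentile, where 1 gene was left, -1.89 with the offset, -3.24 with the median over probe sets and -2.39 with low signals raised to the floor. Slow and cardiac markers gave -0.64 with the offset, -1.43 without those suffixed probe sets and -0.74 with low signals raised. Brown adipose markers gave -0.40 above the 75th percentile and -0.60 with the offset, and the other assembly factors 0.031 above the 75th percentile. The tricarboxylic acid cycle median was 0.032 without suffixed probe sets. Beyond the shared shift with no floor, the causes of these moves were not tested. Ndufs8 had 0.07 with the median over probe sets and 0.24 without suffixed probe sets, against -0.42. Cox6a2 had -1.02 with the offset. Cox5b had -0.35 without suffixed probe sets. No paired analysis was possible because each group is 1 array. Low signal limits the precision for Cox6b2, Cox6a2, Cox7a1 and Cox8b, among others.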
